A study of Arabidopsis thaliana with 16 samples.

Results

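The SWEET genes of Arabidopsis were followed through the parts of a seed holding a heart-shaped embryo. A probe set (the group of array probes that reports 1 transcript) was taken as a member where the platform annotation gives it exactly 1 gene, whose symbol is SWEET followed by a number, or SAG29, the older name of SWEET15. The rule gave 15 members among the 13350 genes named in this way, on an array of 22746 Arabidopsis probe sets: SWEET1, SWEET2, SWEET3, SWEET4, SWEET6, SWEET7, SWEET8, SWEET9, SWEET10, SWEET11, SWEET13, SWEET14, SWEET16, SWEET17 and SAG29. AtVEX1, the annotation's name for SWEET5, falls outside the rule, and SWEET12 was not analysed here. The rule reads gene symbols and no measured value, although the family was chosen with earlier results of these data known.

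All material was of the Ws-0 genotype, with no mutant or treatment, from plants of 38 to 46 days whose siliques measured 1.2 to 1.5 cm and whose embryos measured 52 to 85 micrometres. A laser was used to cut the parts from fixed, paraffin-embedded sections, which gave whole seeds (2 arrays), embryo proper (2), chalazal endosperm (3), micropylar endosperm (2), peripheral endosperm (2), chalazal seed coat (3) and seed coat (2). From each of the 16 samples, 5 to 6 ng of RNA was amplified and read on its own Affymetrix ATH1 array. The labels call the arrays biological replicates without naming the plants behind them, so a p-value here reflects the spread from array to array and nothing beyond it, and the small number of arrays limits the precision.

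SWEET proteins are membrane uniporters that let sugars move down their concentration gradient, out of or into a cell. In Arabidopsis, clades I and II are known mainly for hexose transport, clade III for sucrose and clade IV for sugar movement across the vacuolar membrane. A developing seed is fed by the mother plant through the chalaza, where the phloem ends. The endosperm and embryo have no direct cell connections to the maternal seed coat, so sugars have to leave one tissue and be taken up by the next. SWEET11, SWEET12 and SWEET15 are known for exporting sucrose during seed filling in Arabidopsis.

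Values are the authors' linear signal intensities. Tests used log2(signal + 30.2143), centred on each array's median, in a limma model of the 7 group means across 19475 probe sets, with p-values adjusted by Benjamini-Hochberg over all of them. A background bound was set on each array from its Bacillus control probe sets (their 95th percentile), whose targets plants lack, and it lay between 31.1 and 161. Where all arrays of the lower group lay at or under their bounds, a fold is given as "at least". No fold is given where most arrays of the higher side lay under their bounds too. The chalazal endosperm had the widest range of bounds, at 161, 109 and 54.8. The captured tissues were checked against marker genes. Summed signal of the 3 named seed coat markers was 34576 to 35285 in the seed coat and 16867 to 25331 in the chalazal seed coat. It was 2047 to 4761 in the peripheral endosperm, 679 to 1294 in the micropylar endosperm, 405 to 1161 in the chalazal endosperm and 319 to 343 in the embryo proper. These sums were carried by DFR and BAN, enzymes of flavonoid synthesis. UGT80B1, the third, did not mark the seed coat here: it gave 354 and 460 in the seed coat and 98.8 to 345 in the chalazal seed coat, but also 427 and 424 in the peripheral endosperm and up to 766 in the chalazal endosperm. The 6 named embryo markers summed to 4699 to 4825 in the embryo proper, with 6 of 6 above the bound on each array. They summed to 625 to 2366 in the micropylar endosperm and to 2392 to 3755 in the chalazal seed coat, where LHW alone gave 1986 to 3221. The 7 named endosperm markers summed to 2313 to 6767 in the endosperm regions, but also to 3957 to 4676 in the embryo proper, against 481 to 1177 in the seed coat regions, so the sum of this list did not separate endosperm from embryo. In the embryo proper it was carried by AUR1 (1207 and 1327), AUR2 (1746 and 1845) and BUBR1 (697 and 1121). AGL80 and IKU1 were also above the bound there, and AGL62 (1.67 and 21.7) and IKU2 were not. AGL62 gave 125, 433 and 156 in the chalazal endosperm, 51.9 and 85.0 in the micropylar and 41.0 and 48.3 in the peripheral endosperm.

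Of the 15 SWEET genes, 9 had at least 1 group with all its arrays above the bound, and 12 passed the filter on low values and were tested. SWEET3, SWEET14 and SWEET17 did not pass it. Levels differed among the 7 groups for 8 of the 12 (limma F test, adjusted p from 2.14e-11 for SWEET10 to 0.0191 for SWEET2), where 55.9% of all tested probe sets passed. The 8 were SWEET1, SWEET2, SWEET4, SWEET7, SWEET8, SWEET9, SWEET10 and SAG29, and their highest compartments were not all the same. SWEET1, SWEET2 and SWEET7 had their highest mean in the seed coat, and SWEET4 and SWEET10 in the chalazal seed coat. For SWEET2, SWEET7 and SWEET9 the highest compartment was not resolved from the next. A stricter rule, added after the data were seen, asked that a gene be higher in 1 compartment than in each of the other 5. It was met by 5 of the 12 members. SWEET8 met it in the chalazal endosperm, and SWEET10 and SWEET4 met it in the chalazal seed coat. SAG29 met it in the micropylar endosperm and SWEET1 in the seed coat. Of all tested probe sets, 6.96%, 1.96%, 0.164% and 1.97% met it in these compartments, in that order. No member met it in the peripheral endosperm, where 0.103% of tested probe sets did, or in the embryo proper, where 0.267% did.

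**Figure D1:**
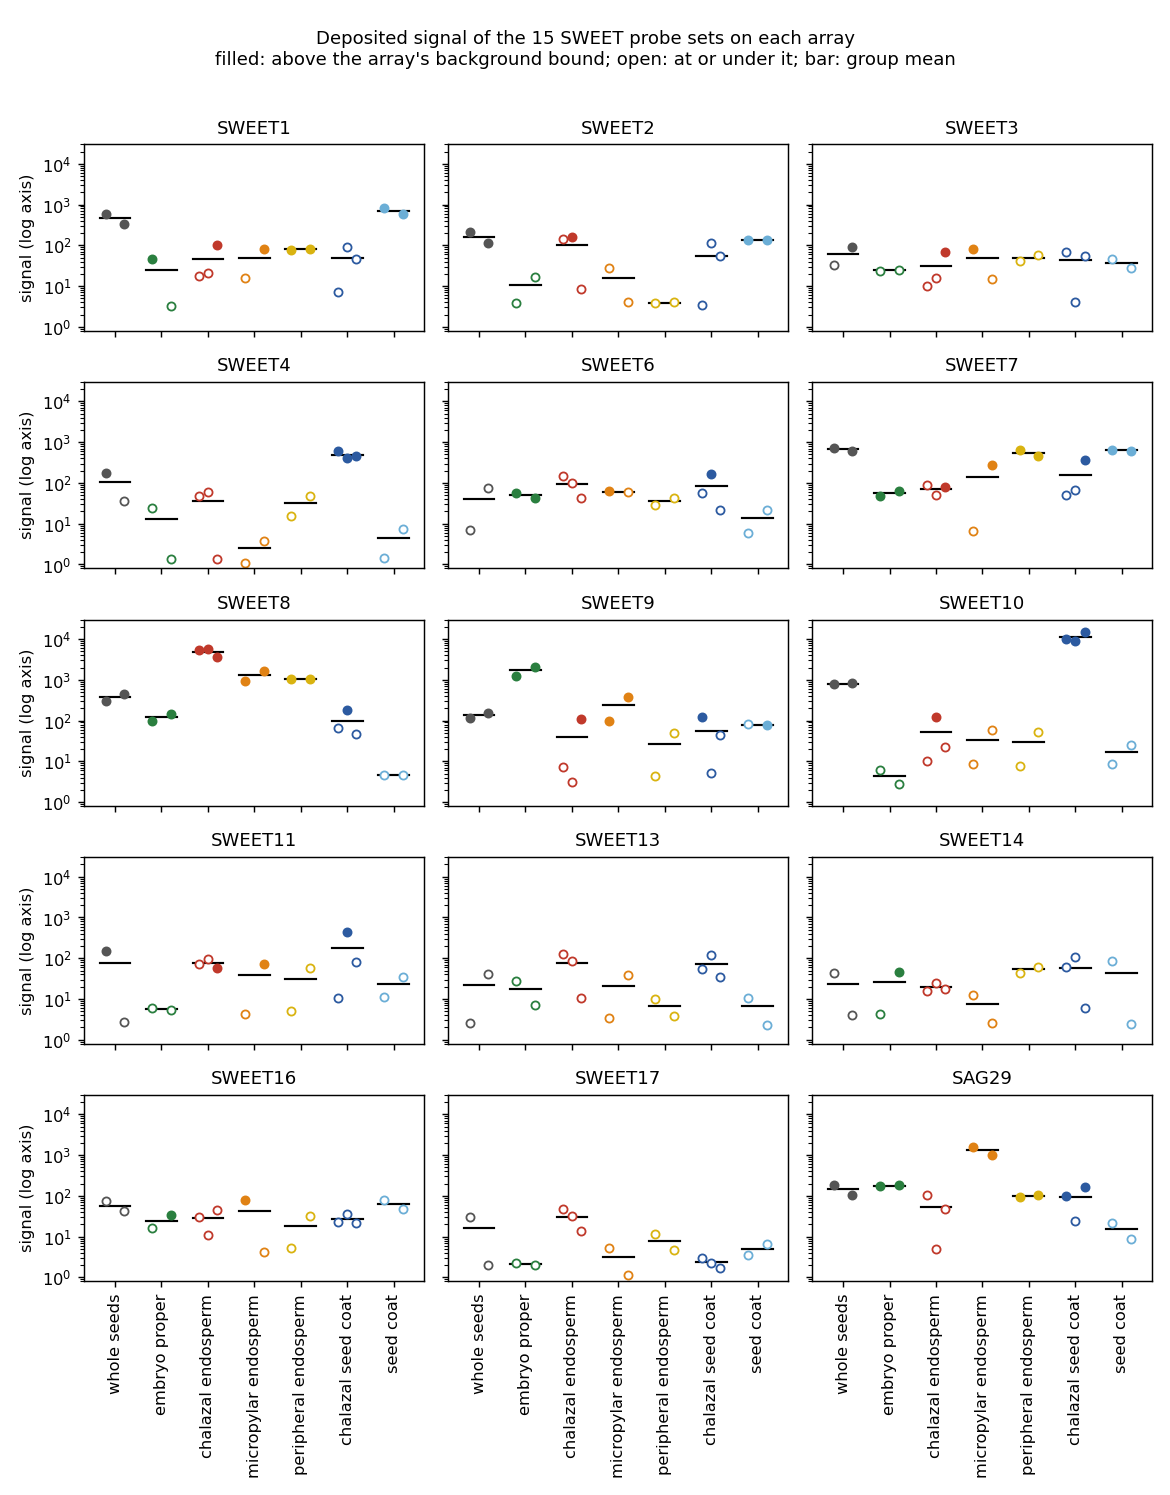
Deposited signal on a log axis for each of the 15 SWEET probe sets, with 1 point per array and a bar at the group mean. Filled points lie above the array's background bound and open points at or under it. SWEET10 stands out in the 3 chalazal seed coat arrays (8953 to 14738) and SWEET8 in the 3 chalazal endosperm arrays (3637 to 5799).

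SWEET8 (AT5G40260), a clade II glucose transporter also called RPG1 and known from the tapetum for pollen wall formation, was highest in the endosperm. It gave signals of 5293, 5799 and 3637 in the chalazal endosperm, 937 and 1682 in the micropylar endosperm and 1031 and 1047 in the peripheral endosperm. The embryo proper gave 97.7 and 148, the chalazal seed coat 64.9, 183 and 46.2, and the seed coat 4.68 and 4.59. Every endosperm array thus lay above every embryo and seed coat array, and the chalazal endosperm arrays lay above all others. In bulk tissue of this kind, more cells of a type and more RNA per cell cannot be told apart.

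The chalazal endosperm averaged 4909 ± 1131 (SD, n = 3) for SWEET8, against 1309 ± 527 (n = 2) in the micropylar endosperm, the next in order. The log2 difference between them was 2.17 ± 0.53 (SE; adjusted p = 0.00257 by limma), and SWEET8 was higher in the chalazal endosperm than in each of the other 5 compartments, a pattern shared by 6.96% of tested probe sets. Over the seed coat it was at least 56.3-fold higher. Without micropylar endosperm replicate 1 the largest of the 5 adjusted p-values was 0.0513, just past the threshold. Down the order, the micropylar and peripheral endosperm differed by 0.28 ± 0.58 (adjusted p = 0.974), so their order was not resolved. The peripheral endosperm lay 3.00 ± 0.58 above the embryo proper (adjusted p = 0.00144, in a pair where 5.72% of probe sets differed), and the embryo proper lay 0.36 ± 0.53 above the chalazal seed coat (adjusted p = 0.660).

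SWEET8 was also higher in the chalazal seed coat than in the seed coat, by 1.67 ± 0.53 (adjusted p = 0.0406). No fold is given, since the seed coat and most chalazal seed coat arrays lay under their bounds. The call did not hold in 12 of 24 other settings, 10 of them the omission of 1 array, with adjusted p up to 0.209 without seed coat replicate 1. Only 1 of the 3 chalazal seed coat arrays, replicate 2 at 183, lay above its bound. The endosperm markers on that array did not move together: IKU1, which was above the bound on all 16 arrays of the study, was highest there at 1002, against 299 and 540 on the others, while AUR1 (3.67) and AUR2 (7.25) were lowest. Of the 7 markers, 1 was above the bound on replicate 2, against 3 and 2 on replicates 1 and 3. Whether endosperm tissue contributes to SWEET8 signal there was not tested.

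SWEET10 (AT5G50790), a clade III sucrose transporter known in Arabidopsis from the floral transition, was measured almost solely at the chalazal seed coat among the compartments. Its signals were 9836, 8953 and 14738 in the chalazal seed coat, a mean of 11176 ± 3117 (SD, n = 3). The seed coat gave 8.71 and 24.8, the micropylar endosperm 8.58 and 59.5, the peripheral endosperm 7.77 and 53.4, and the embryo proper 6.06 and 2.78, all at or under the bound. The chalazal endosperm gave 10.1, 123 and 22.7, of which only replicate 2 was above its bound. The chalazal seed coat was higher than the chalazal endosperm, the next in order, by 6.88 ± 0.57 (adjusted p = 5.22e-10). Over the 4 compartments wholly under the bound it was at least 94.6-fold to 178-fold higher. The largest of the 5 adjusted p-values was 1.13e-09, and the rule was met in all 24 other settings tried. Of all tested probe sets, 1.96% were higher in the chalazal seed coat than in each other compartment.

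SWEET4 (AT3G28007), a clade II hexose transporter known from leaf veins, peaked in the same compartment. It gave 606, 400.2 and 463 in the chalazal seed coat, a mean of 490 ± 106 (SD, n = 3). No other compartment array was above its bound: the chalazal endosperm gave 47.2, 58.3 and 1.34, the embryo proper 24.1 and 1.33, the peripheral endosperm 15.7 and 47.3, the micropylar endosperm 1.07 and 3.86, and the seed coat 1.46 and 7.52. The chalazal seed coat exceeded the other 5 at least 2.91-fold to 8.36-fold, with a largest adjusted p of 7.90e-04. The order of the other 5 compartments has no meaning, since all of them lay under the bound.

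The tissue around the embryo carried SAG29 (AT5G13170; SWEET15), a clade III sucrose transporter first described from senescing leaves and known for seed filling. Its signals were 1600 and 1030 in the micropylar endosperm, a mean of 1315 ± 404 (SD, n = 2). They were 174 and 183 in the embryo proper, 92.0 and 103 in the peripheral endosperm and 97.1, 24.0 and 161 in the chalazal seed coat. The chalazal endosperm gave 106, 4.85 and 47.0 and the seed coat 21.4 and 8.70, all at or under the bound. Both micropylar arrays lay above all arrays of the other compartments. The micropylar endosperm exceeded the embryo proper, the next in order, by 2.85 ± 0.71 (adjusted p = 0.0230; 2.78% of probe sets differed in this pair), the chalazal endosperm at least 8.36-fold and the seed coat at least 12.8-fold. Only 0.164% of tested probe sets were higher in the micropylar endosperm than in each other compartment.

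SAG29's place at the top rested on few arrays. The rule was met in 16 of 24 other settings, and the largest adjusted p was 0.214 without embryo proper replicate 1, 0.162 without embryo proper replicate 2, 0.268 without micropylar endosperm replicate 1 and 0.0563 without replicate 2. Without peripheral endosperm replicate 1 or 2 it was 0.151 or 0.159. Embryo marker sums in the micropylar endosperm were 2366 and 625 for replicates 1 and 2, of which LHW gave 1527 and 218. The embryo proper itself had no more than 183 for SAG29, against 1600 and 1030 on these 2 micropylar arrays. Whether embryo tissue contributes to SAG29 signal there was not tested.

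SWEET9 (AT2G39060), the clade III sucrose exporter known from nectaries, had its highest signal in the embryo proper, with 1277 and 2123, a mean of 1700 ± 598 (SD, n = 2). The micropylar endosperm gave 99.4 and 375, the chalazal endosperm 7.30, 3.09 and 107, the seed coat 81.5 and 76.9, the chalazal seed coat 122, 5.23 and 44.0, and the peripheral endosperm 4.49 and 49.3. Both embryo arrays lay above every other array, whole seeds included. SWEET9 was higher in the embryo proper than in the chalazal endosperm by 4.46 ± 0.73 (adjusted p = 2.26e-05; 41.3% of probe sets differed in this pair) and than in the chalazal seed coat by 4.48 ± 0.73 (adjusted p = 3.34e-05; 26.3% differed). Over the seed coat the log2 difference was 3.85 ± 0.80 (adjusted p = 8.63e-04; 18.4% differed), and over the peripheral endosperm SWEET9 was at least 14.7-fold higher (adjusted p = 2.54e-04).

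The difference in SWEET9 between embryo proper and micropylar endosperm, 2.68 ± 0.80, did not pass (adjusted p = 0.0688), so SWEET9 did not meet the rule for the embryo proper. It passed in 5 of 24 other settings, among them without chalazal endosperm replicate 3 (0.0444), chalazal seed coat replicate 1 (0.0462) or chalazal seed coat replicate 2 (0.0488), and ranged up to an adjusted p of 0.485 without embryo proper replicate 2. Within the micropylar endosperm, the array with more SWEET9 (375, replicate 2) was the one with the lower embryo marker sum (625), and the array with 99.4 had 2366. Those sums depend largely on LHW (1527 on replicate 1 and 218 on replicate 2), which was also high in the chalazal seed coat. On replicates 1 and 2, BBM gave 103 and 81.5, PHV 207 and 146 and CLV3 43.8 and 43.5. CR4 gave 247 and 120 and YAB3 238 and 15.7. Whether embryo tissue contributes to SWEET9 signal there was not tested.

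AtVEX1 (AT5G62850), the SWEET gene named otherwise, was also brightest in the embryo proper. It gave 852 and 535 there, against group means of 131 in the chalazal endosperm, 60.6 in the micropylar endosperm, 26.0 in the peripheral endosperm, 24.1 in the seed coat and 43.6 in its chalazal region. It was described and not tested as a member.

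In the seed coat, SWEET1 (AT1G21460), a clade I glucose transporter of the plasma membrane, gave 812 and 603, a mean of 707 ± 148 (SD, n = 2). Other compartments were low: 77.8 and 80.4 in the peripheral endosperm, 17.8, 20.4 and 103 in the chalazal endosperm, 16.0 and 82.3 in the micropylar endosperm, 45.9 and 3.19 in the embryo proper. In the chalazal seed coat it gave 7.17, 91.0 and 46.7, all under the bound, so the arrays of both seed coat regions did not overlap. SWEET1 was higher in the seed coat than in the peripheral endosperm, the next in order, by 2.65 ± 0.71 (adjusted p = 0.00839) and at least 5.79-fold higher than in the chalazal seed coat. It met the rule for the seed coat, as 1.97% of tested probe sets did. The largest adjusted p was 0.0627 without peripheral endosperm replicate 1, 0.0618 without peripheral endosperm replicate 2 and 0.0783 without seed coat replicate 1. The peripheral endosperm, with 2047 to 4761, also had more seed coat marker signal than the other endosperm regions.

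SWEET7 (AT4G10850), a clade II hexose transporter, was high in a maternal and in a filial tissue. It gave 638 and 615 in the seed coat and 651 and 456 in the peripheral endosperm. The micropylar endosperm gave 6.46 and 281, the chalazal seed coat 50.2, 66.7 and 365, the chalazal endosperm 87.9, 49.4 and 77.6, and the embryo proper 47.7 and 64.3. The seed coat minus the peripheral endosperm came to a log2 difference of 0.10 ± 0.76 (adjusted p = 0.960; 17.9% of probe sets differed in this pair), an interval that leaves room for a difference of either sign. The peripheral endosperm exceeded the chalazal seed coat by 2.14 ± 0.70 (adjusted p = 0.0235; 24.9% differed). Summed seed coat marker signal was 34576 to 35285 in the seed coat, against 2047 to 4761 in the peripheral endosperm. SWEET1, also high in the seed coat, gave 77.8 and 80.4 in the peripheral endosperm. The part of seed coat tissue in the peripheral SWEET7 signal was not tested beyond these values.

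SWEET2 (AT3G14770), a clade I vacuolar member known in roots for limiting sugar loss, was weak. It gave 133 and 136 in the seed coat and 142, 160 and 8.29 in the chalazal endosperm, of which only the 160 lay above its bound. The chalazal seed coat (3.53, 111 and 54.2) and the embryo proper and the other endosperm regions (3.75 to 27.8) were wholly under it. Seed coat and chalazal endosperm, the top of the order, differed by 0.25 ± 0.67 (adjusted p = 0.801).

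The other members stayed near the background. SWEET11 (AT3G48740), known for phloem loading and seed filling, gave 10.8, 432 and 78.6 in the chalazal seed coat, of which only replicate 2 was above its bound, and 154 and 2.65 in whole seeds. The arrays of those groups were far apart, and the F test over the 7 groups did not pass (adjusted p = 0.217). Of its pairs of compartments, SWEET11 was lower in the embryo proper (5.87 and 5.32) than in the chalazal endosperm (71.0, 98.3 and 58.6), at least 2.30-fold (adjusted p = 0.0412). That call did not hold without embryo proper replicate 1 (0.155) or 2 (0.146) or chalazal endosperm replicate 1 (0.0568), 2 (0.0968) or 3 (0.0580), nor without centring (0.133), and only replicate 3 of the chalazal endosperm lay above its bound. SWEET6 (AT1G66770) was above the bound on 4 arrays, with 56.7 and 43.3 in the embryo proper and a highest value of 168 on chalazal seed coat replicate 2. Its highest mean was that of the chalazal endosperm (148, 98.5 and 41.6), all under the bound. The F test for SWEET6 did not pass (adjusted p = 0.175). Its chalazal endosperm was called over the seed coat (1.80 ± 0.64, adjusted p = 0.0278), with both groups under the bound. SWEET13 (AT5G50800), a clade III member whose gene lies next to SWEET10 on chromosome 5 with 0 genes between them in the TAIR10.1 annotation, never exceeded its bound, and its highest value was 129.

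SWEET17 (AT4G15920), a vacuolar fructose transporter, was likewise above the bound on no array, with a highest signal of 47.9. SWEET16 (AT3G16690), its vacuolar relative, was above the bound on 2 arrays, SWEET3 (AT5G53190) on 3 and SWEET14 (AT4G25010) on 1. None of the 4 had a group wholly above the bound. For these genes a difference between compartments was not detectable at this signal, which does not show that they are silent.

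**Figure D2:**
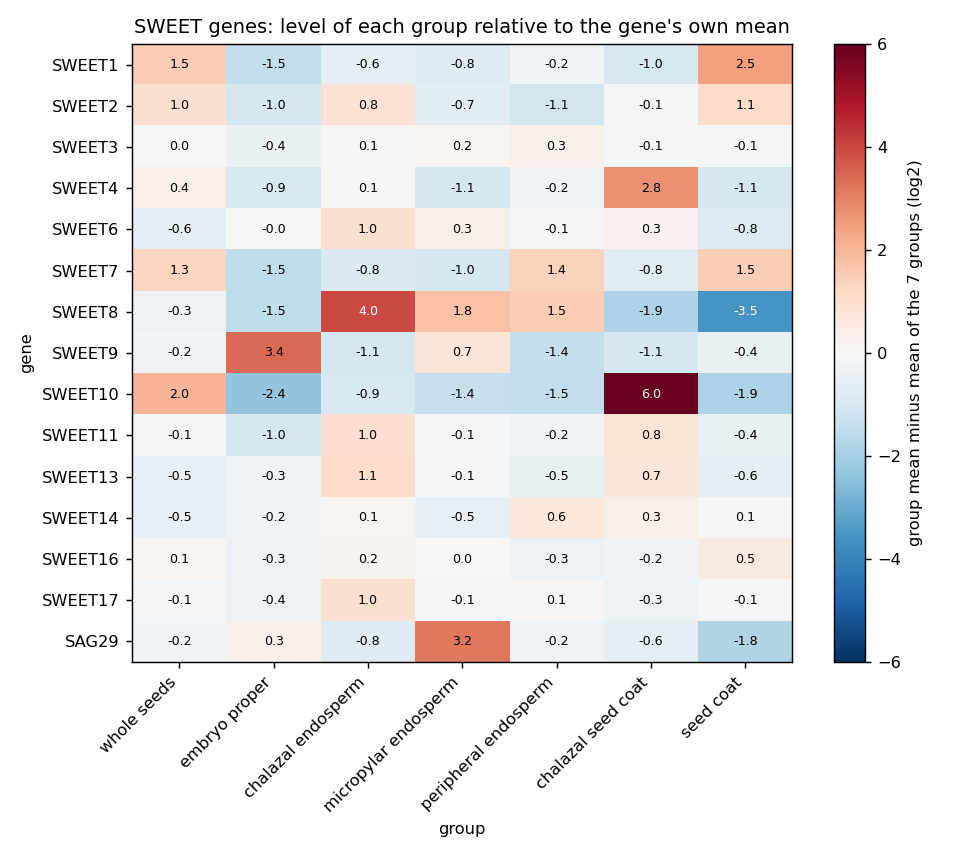
Mean level of each SWEET gene in each group, as the log2 difference from that gene's own mean over the 7 groups, with red higher and blue lower and the value printed in each cell. The highest group is not the same for all genes: SWEET1 reaches 2.46 and SWEET2 1.10 in the seed coat, while SWEET10 reaches 5.97 in the chalazal seed coat.

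Between tissues, members moved in both directions. In the comparison of the 3 endosperm regions with both seed coat regions, 2 members were higher and 3 lower of 12 tested, and 35.2% of all probe sets passed. The members' median difference was -0.09, against 0.19 over all tested probe sets. Medians over members, here and below, are set by members that were not called, most of them near the background. No shift of the family is read from them. SWEET8 (5.11 ± 0.35) and SAG29 (1.93 ± 0.42, adjusted p = 6.67e-04) were higher in endosperm. For SAG29 the endosperm mean was raised by the micropylar region. Its peripheral endosperm was not resolved from the seed coat (1.60 ± 0.71, adjusted p = 0.126) or the chalazal seed coat (0.37 ± 0.65, adjusted p = 0.729). Nor was its chalazal endosperm resolved from the seed coat (1.04 ± 0.65, adjusted p = 0.214). SWEET10 was lower in endosperm by -3.32 ± 0.41 (adjusted p = 3.23e-07). SWEET1 (-1.26 ± 0.42) and SWEET4 (at least 1.09-fold, its endosperm arrays all under the bound) were lower at an adjusted p of 0.0214 each. The SWEET1 call did not hold without replicate 1 of the micropylar endosperm (0.0698), replicate 2 of the chalazal seed coat (0.0545) or replicate 1 of the seed coat (0.0882). The SWEET4 call did not hold without replicate 1 of the peripheral endosperm (0.0709) or of the chalazal seed coat (0.0506), or without replicate 1 (0.0509) or 2 (0.0894) of the seed coat. Each seed coat mean here joins 2 regions that differed strongly for SWEET10, SWEET4 and SWEET1.

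Between the filial tissues, the embryo proper and the mean of the endosperm regions differed for 2 members in opposite directions, and 13.8% of all probe sets passed. SWEET9 was higher in the embryo proper by 3.99 ± 0.64 (adjusted p = 8.61e-05). SWEET8 was lower there by -3.91 ± 0.47 (adjusted p = 1.91e-06), a 15.1-fold difference. The median over the 12 members was -0.62, against -0.29 over all.

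Within the endosperm, the chalazal region differed from the mean of the others for 4 members, 3 higher and 1 lower, where 37.6% of all probe sets passed, and the members' median was 0.62 against 0.24. SWEET8 was 4.97-fold higher in the chalazal endosperm (log2 2.31 ± 0.45, adjusted p = 1.57e-04). SAG29 was at least 2.60-fold lower there (-2.25 ± 0.54, adjusted p = 0.00164). That difference rested on the micropylar region: from the peripheral endosperm alone the chalazal endosperm was not resolved (-0.56 ± 0.65, adjusted p = 0.541). SWEET2 was called higher by 1.74 ± 0.56 (adjusted p = 0.0166), although replicate 3 of the chalazal endosperm gave only 8.29 and the groups overlapped. Only replicate 2 of the chalazal endosperm (160) lay above its bound, so no fold is given for SWEET2. The SWEET2 call did not hold without chalazal endosperm replicate 1 (0.0705) or 2 (0.101) or without micropylar endosperm replicate 2 (0.0700). The third higher member, SWEET13 (1.37 ± 0.52, adjusted p = 0.0391), was under the bound on every array of both sides, so no fold is given, and its call did not hold in 12 of 23 other settings, with adjusted p up to 0.158 without chalazal endosperm replicate 1.

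Between the micropylar and peripheral endosperm, SAG29 alone of the 12 members passed, higher in the micropylar region by 3.37 ± 0.71 (adjusted p = 0.0127), where 1.01% of all probe sets passed. Its signals were 1600 and 1030 in the micropylar and 92.0 and 103 in the peripheral endosperm. The call did not hold without micropylar endosperm replicate 1 (0.268) or peripheral endosperm replicate 1 (0.151) or 2 (0.159). SWEET7 at -2.42 ± 0.76 (adjusted p = 0.182) and SWEET9 at 2.14 ± 0.80 (adjusted p = 0.345) did not pass, with the 2 micropylar arrays of each gene far apart. The members' median was 0.33, against -0.03 over all probe sets.

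The 2 seed coat regions gave 5 called members of 12, 3 higher and 2 lower in the chalazal seed coat, where 10.8% of all probe sets passed. The members' median difference was 1.16, against 0.05 over all tested probe sets. That median was set by SWEET6 (1.08 ± 0.64, adjusted p = 0.329), SWEET11 (1.23 ± 0.78, 0.375) and SAG29 (1.23 ± 0.65, 0.261). None of these was called, and their seed coat arrays lay under the bound, so no shift of the family is read from it. SWEET10 (at least 94.6-fold, adjusted p = 8.31e-10), SWEET4 (at least 4.44-fold, adjusted p = 8.45e-05) and SWEET8 (described above) were higher in the chalazal seed coat. SWEET1 was at least 5.79-fold lower in the chalazal seed coat (adjusted p = 4.37e-04). SWEET7 was lower by -2.24 ± 0.70 (adjusted p = 0.0350), with chalazal arrays at 50.2, 66.7 and 365, against 638 and 615 for the seed coat. The SWEET7 call did not hold without chalazal seed coat replicate 1 (0.124) or 2 (0.128) or without seed coat replicate 1 (0.187) or 2 (0.201). Replicate 3 of the chalazal seed coat, with the highest SWEET7, had the lowest DFR of its group (12615) but the highest BAN (3908) and UGT80B1 (345).

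Whether the chalazal region differs from its surroundings in the same way on the filial and maternal sides was asked by a difference of differences, added after the data were seen. Of the 12 members, 5 passed, 2 with a positive and 3 with a negative value, where 20.0% of all probe sets passed, and the medians were -0.01 over members and 0.15 over all. For SWEET10 the chalazal region was higher than its surroundings in the seed coat and not called in the endosperm, a fitted difference of -7.30 ± 0.82 (adjusted p = 6.40e-07), whose exact size has no meaning because the seed coat lay under the bound. For SWEET8 the value was 0.64 ± 0.69 (adjusted p = 0.564), so no unequal change was shown.

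**Figure D3:**
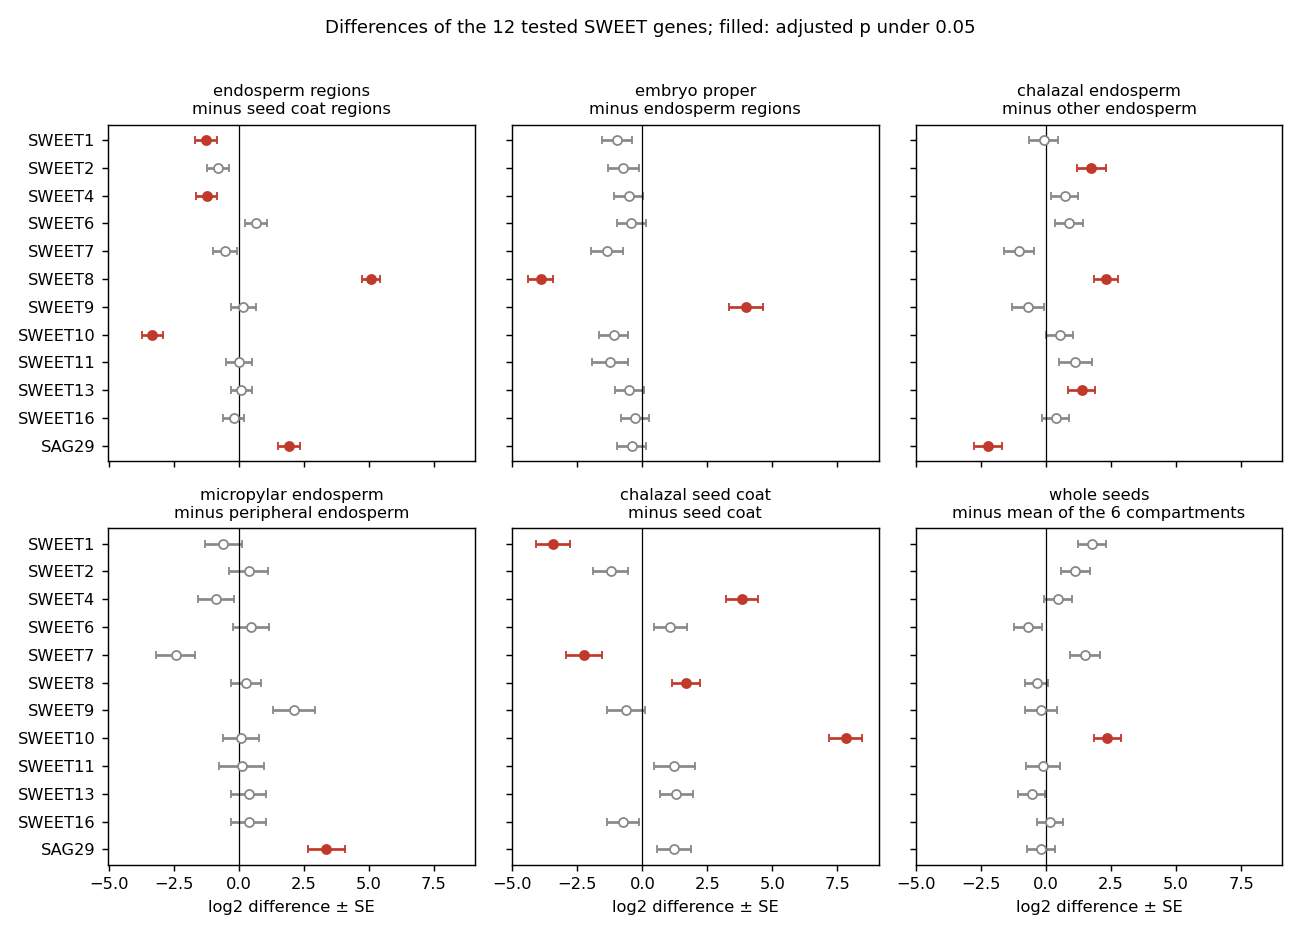
Log2 difference (x axis) and its SE for each of the 12 tested SWEET genes (y axis) in 6 comparisons, 1 panel each, with the first-named side on top of the fold. Filled red points passed at an adjusted p under 0.05; the largest difference is that of SWEET10 between chalazal seed coat and seed coat, fitted at 7.82 ± 0.63 with the seed coat under the bound.

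In whole seeds, the sum of all parts, the members with a narrow site gave far less signal than at that site. SWEET10 gave 800.1 and 816, which is 7.23% of its mean in the chalazal seed coat. Whole seeds gave 308 and 452 for SWEET8, 7.75% of its chalazal endosperm mean, and 116 and 151 for SWEET9, 7.86% of its embryo mean. For SAG29, at 188 and 106, the whole seed mean was 11.2% of that in the micropylar endosperm. For SWEET4 whole seeds gave 175 and 36.8, the second under its bound, so no share is given. Larger shares were found for SWEET1, SWEET7 and SWEET2, set against their seed coat means. SWEET1, at 576 and 337, reached 64.5% of that mean, SWEET7, at 727 and 618, 107%, and SWEET2, at 207 and 115, 120%. The seed coat was not resolved from the peripheral endosperm for SWEET7, nor from the chalazal endosperm for SWEET2, which was weak.

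Against the mean of the 6 compartments, each weighted alike, SWEET10 was the 1 member of 12 that passed in whole seeds, higher by 2.36 ± 0.52 on the log2 scale (adjusted p = 0.00713), where 3.57% of all probe sets passed. The call did not hold without whole seeds replicate 1 (0.180) or 2 (0.143). That mean of logs is set mostly by compartments at the background, so the value is no share of tissue. SWEET1 at 1.78 ± 0.54 (adjusted p = 0.0633) and SWEET7 at 1.49 ± 0.58 (adjusted p = 0.173) did not pass, and the members' median was 0.01 against -0.23.

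Other genes followed the same patterns over the group means. For SWEET10 the closest were STZ, a zinc finger regulator of stress responses (Pearson r = 0.997 over 7 group means and 0.89 over 16 arrays), AT3G19550 (0.995 and 0.99) and AT3G43270 (0.992 and 0.93). SWEET4 was closest to AT4G29580 (0.99 and 0.96), AT3G11870 (0.98 and 0.92) and the tetraspanin TET5 (0.98 and 0.93). SWEET8 was closest to AT1G55550 (0.99 and 0.94), AT3G10780 (0.98 and 0.97) and AT1G21670 (0.98 and 0.97). The values share arrays and groups and were picked as the highest among many genes, so they are given as a description.

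The genes most like the other members were found by the same measure. SWEET9 was closest to AT5G26850 (0.985 and 0.79), AT3G29300 (0.985 and 0.84) and CLE27, a gene for a small signalling peptide (0.982 and 0.68). SAG29 was closest to AT5G12460 (0.97 and 0.89) and AT5G40680 (0.96 and 0.69). SWEET1 was closest to AT1G49800 (0.99 and 0.92) and AT1G02300 (0.99 and 0.94), and SWEET7 to AT1G28600 (0.97 and 0.82). Between members, SWEET4 and SWEET10 gave 0.95 over 7 groups and 0.91 over 16 arrays, and SWEET1 and SWEET7 gave 0.84 and 0.74.

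A list of other sugar transport and metabolism genes was set beside the SWEET genes. The annotation named 7 of them and 5 were tested: ATSPS4F, SFP2, TMT1, TMT2 and TMT3. The sucrose transporters, hexose transporters, sucrose synthases and hexokinases of the list were not among those named, so the 5 do not represent the pathway. In the chalazal seed coat against the seed coat, 1 of the 5 was higher and 2 were lower, with a median of -0.45. Of all tested probe sets, 10.8% passed there. ATSPS4F (AT4G10120), a sucrose phosphate synthase of sucrose synthesis, gave 14247, 12576 and 11707 in the chalazal seed coat, against 107 and 273 in the seed coat (log2 difference 5.91 ± 0.54, adjusted p = 8.35e-09). It was thus high on the same 3 arrays as SWEET10 and SWEET4. SFP2 (AT5G27360), a sugar porter of the ERD6-like family, gave 176, 214 and 375 in the chalazal seed coat, against 1408 and 1349 in the seed coat (-2.43 ± 0.60, adjusted p = 0.00697), on the side of SWEET1 and SWEET7.

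TMT1 (AT1G20840), a sugar importer of the vacuolar membrane, gave 1883 and 1602 in the peripheral, 973 and 1172 in the micropylar and 787, 121 and 442 in the chalazal endosperm. The embryo proper gave 110 and 114, the chalazal seed coat 4.23, 82.7 and 85.8, and the seed coat 717 and 789. Like SWEET7, it was thus high in the peripheral endosperm and the seed coat. SWEET7 gave 6.46 and 281 in the micropylar and 49.4 to 87.9 in the chalazal endosperm. It was lower in the chalazal than in the peripheral endosperm (-2.25 ± 0.70, adjusted p = 0.0154). TMT1 was lower in the chalazal seed coat than in the seed coat (-3.41 ± 0.60, adjusted p = 1.73e-04), and lower in the chalazal endosperm than in the mean of the other endosperm (-1.58 ± 0.50, adjusted p = 0.0140), where SWEET8 was higher.

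Across the larger comparisons, 1 of the 5 sugar genes was higher and 2 were lower in endosperm than in seed coat regions (median -0.22). Of all tested probe sets, 35.2% passed there. The 3 genes were TMT1 (2.11 ± 0.39, adjusted p = 9.60e-05), SFP2 (-2.95 ± 0.39, adjusted p = 9.41e-07) and ATSPS4F (-3.15 ± 0.35, adjusted p = 5.69e-08). TMT1 was lower in the embryo proper than in endosperm (-2.95 ± 0.53, adjusted p = 2.61e-04). It was the only 1 of the 5 called there, where 13.8% of all probe sets passed. TMT2 and TMT3 passed in none of the 6 comparisons. None of the 5 passed between micropylar and peripheral endosperm or in the comparison of whole seeds, where 1.01% and 3.57% of all probe sets passed.

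**Figure D4:**
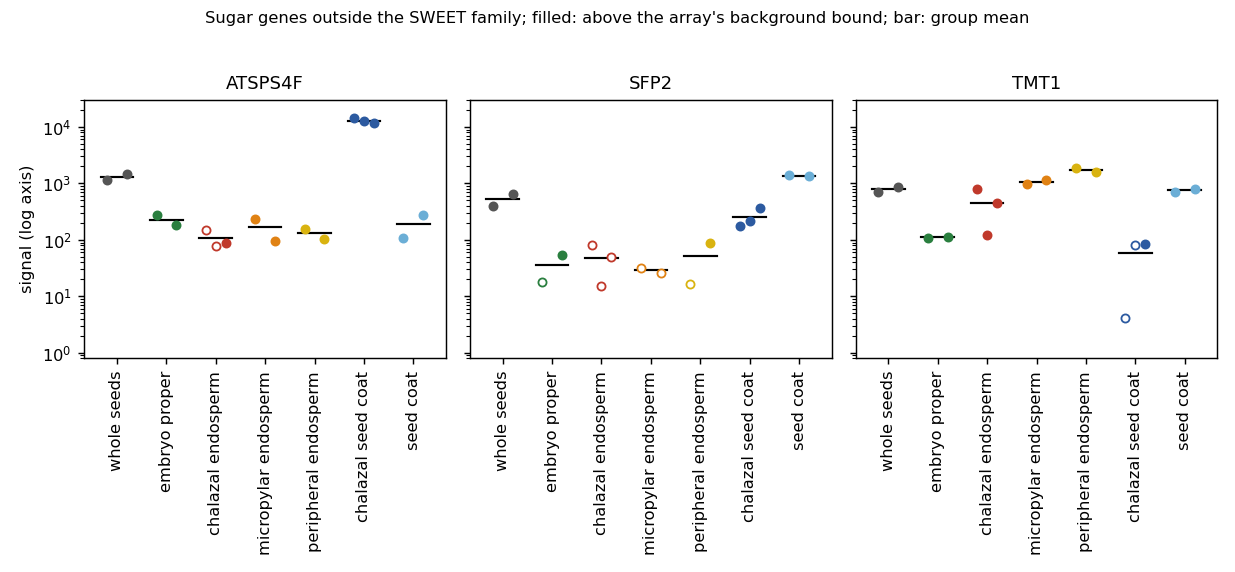
Deposited signal on a log axis for ATSPS4F, SFP2 and TMT1, with 1 point per array, filled where it lies above the background bound, and a bar at the group mean. ATSPS4F is at 11707 to 14247 on the 3 chalazal seed coat arrays and TMT1 at 1602 to 1883 on the 2 peripheral endosperm arrays.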

How the data were processed

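RNA from laser-captured parts of Arabidopsis seeds was measured on 16 arrays in 7 groups taken from the labels. The authors processed the arrays with GCOS, per the submitters' processing notes, with no version or settings named in the sources used here. Deposited values are intensity on a linear scale, with a mean of 500.04 to 500.08 on each array after leaving out the lowest and highest 2% of values. Of 22810 probe sets, 64 are controls. Names came from the platform annotation, where 13513 probe sets name 1 gene, 503 several and 8730 none; 13436 of the 13513 matched the TAIR10.1 gene table, used for names and neighbours only. No coordinates or sequences are printed.

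The offset of 30.2143 is the 25th percentile of all values. Testing required a value over the 40th percentile of the array on 2 or more arrays, which kept 19475 and left out 3271; the arrays' medians, 100.01 to 185.36, were then set equal. Between 44.7% and 71.1% of probe sets lay above the bound taken from 27 Bacillus control probe sets. GAPDH control probe sets gave 3' over 5' ratios of 3.49 to 24.7. The 11 pairs of arrays within groups correlated at 0.820 to 0.955 across probe sets, and none held identical values. Models were fitted in R 4.3.3 by limma 3.58.1, with trended eBayes variances, two-sided, at an adjusted p of 0.05, and were tested on simulated data. Log2 differences subtract the second-named side from the first and carry the SE of the fit. Where the lower side lay partly under the bound, the printed size is approximate.

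The members follow from gene symbols. The genes most like a member are the first of the 5 probe sets naming 1 gene with the highest Pearson r over the group means, and sugar genes are given with values where they passed. The members and lists were chosen with earlier results of these data known. The alternatives were no centring, quantile normalisation, an offset of 1, no filter, a filter at the 60th percentile, array weights, no intensity trend, a replicate block and the omission of each array in turn. The background bound and its alternatives, the rule for a highest compartment and the difference of differences were added after the data were seen.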

Additional observations from a re-analysis of the deposited data

Results flagged for a closer look

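The step between the chalazal region and its surroundings differed between endosperm and seed coat for 5 SWEET genes, by a limma contrast of the same fit that was added after the data were seen. For SWEET10 the value was -7.30 ± 0.82 (SE; adjusted p = 6.40e-07): SWEET10 was at least 94.6-fold higher in the chalazal seed coat than in the seed coat, and its step in the endosperm was not called, with the other endosperm wholly under the bound. For SWEET4 it was -3.12 ± 0.83 (adjusted p = 0.00773): SWEET4 was at least 4.44-fold higher in the chalazal seed coat than in the seed coat, and all its endosperm arrays lay under the bound. These values are those of the fit, and their exact size has no meaning where a group lies under the bound, which holds for at least 1 group of each of the 5 genes.

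SAG29 had -3.48 ± 0.84 (adjusted p = 0.00382): it was at least 2.60-fold lower in the chalazal than in the other endosperm, and its step in the seed coat was not called. The other endosperm was high through its micropylar region (1600 and 1030). From the peripheral endosperm alone, the chalazal endosperm was not resolved for SAG29 (-0.56 ± 0.65, adjusted p = 0.541). SWEET1 had 3.34 ± 0.84 (adjusted p = 0.00547): it was at least 5.79-fold lower in the chalazal seed coat than in the seed coat, and its step in the endosperm was not called. SWEET2 was called higher in the chalazal than in the other endosperm (1.74 ± 0.56), with only chalazal endosperm replicate 2 (160) above its bound. That call did not hold without chalazal endosperm replicate 1 (0.0705) or 2 (0.101). SWEET2's step in the seed coat was not called, and its difference of differences was 2.96 ± 0.88 (adjusted p = 0.0169). Its value did not pass without chalazal seed coat replicate 1 (2.51, adjusted p = 0.0511), seed coat replicate 1 (3.01, 0.0606) or seed coat replicate 2 (2.91, 0.0715).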

How the results depend on the processing

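Single-gene results held in most settings: of 765 recomputations of 32 results, 700 kept direction and side of the threshold, 54 fell below it, 1 passed it and 10 changed sign, all of these 10 in differences that had not passed. SWEET8 in the comparison of whole seeds became 0.02 without centring and 0.07 with an offset of 1, and its chalazal difference of differences -1.42 with an offset of 1. SAG29 in whole seeds became 0.18 without centring and 0.15 with an offset of 1. Leaving out 1 array gave -0.56 to 0.19 for that SAG29 value, -0.00 to 0.56 for SWEET8 and -0.51 to 0.66 for SWEET10 between micropylar and peripheral endosperm, and -0.06 to 1.02 for SWEET10 in the chalazal against the other endosperm. Of the members called, an offset of 1 left 3 between endosperm and seed coat regions, 0 between micropylar and peripheral endosperm, and 2 each for the difference of differences and for a highest compartment (SWEET8 and SWEET10). Array weights gave 4 for embryo against endosperm, 2 for micropylar against peripheral endosperm and 2 for whole seeds. The filter at the 60th percentile gave 2 for the chalazal against the other endosperm, a filter that SWEET2 and SWEET13 did not pass, and 2 for whole seeds, as did no centring. Leaving out 1 array gave 3 to 5 for endosperm against seed coat, 2 to 4 for the chalazal against the other endosperm, 0 to 2 for micropylar against peripheral endosperm, 3 to 5 for the seed coat regions, 0 to 2 for whole seeds and 3 to 6 for a highest compartment. The causes were not tested. With a replicate block, 2 members passed in whole seeds; no other count of members moved by over 1.5 times. The main model treated all arrays as unpaired. Deviations of same-numbered arrays correlated at -0.04 to 0.21 over 43 pairs, against -0.11 to 0.11 over 66 pairs of different number. Whether arrays of the same number share plants cannot be decided from these correlations, since the labels name no plants. Centring changed the log2 values of single arrays by -0.43 to 0.38. Signal over background limits all statements on SWEET3, SWEET11, SWEET13, SWEET14, SWEET16 and SWEET17.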
